A study of Mus musculus with 8 samples.

Results

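Paw skin of male Adcyap1r1 -/- mice (PAC1R KO) on the C57BL/6J strain was compared 30 min after PACAP or its vehicle had been injected into the skin of the footpad. PACAP, pituitary adenylate cyclase-activating polypeptide, is a neuropeptide, and PAC1R is the receptor that binds it with the highest preference. The comparison was made up of the 2 arrays, of 8 in the series, that carry the labels of KO mice, PACAP and 30 min. Both arrays held the same 2 RNA samples with swapped dyes, so that PACAP skin was labelled with Cy5 on one array and with Cy3 on the other. The mice were 9 to 10 weeks old and were anaesthetized with a mixture of 3 agents. The vehicle was 5 µL of saline with 0.1% BSA, and the PACAP injection was the same volume with 1e-07 mol/L of the peptide. The same design was applied to KO mice at 60 min and to wild-type C57BL/6J mice (WT) at 30 and 60 min. Injections were given to 6 mice per genotype, and which of them entered each RNA sample, or whether RNA was pooled, is not named. Each of the 4 comparisons therefore rests on 1 pair of RNA samples, and no value below carries an error between animals. All KO arrays lay on 1 slide and all WT arrays on another, so that slide and genotype cannot be told apart here. The comparison asks what PACAP does in this skin when its preferred receptor is deleted.

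PAC1R belongs to the G-protein-coupled receptors and raises cyclic AMP and intracellular calcium in the cells that carry it. PACAP also binds the VIP receptors Vipr1 and Vipr2, which the deletion leaves in place. Paw skin is a thick, ridged epidermis with eccrine sweat glands in the pads, and samples of it can carry dermis, nearby hair follicles and small muscles. When skin is injured or irritated, keratinocytes make chemokines, protease inhibitors, S100 alarmins and small proline-rich proteins, and neutrophils enter from the blood.

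Across 39426 probes with a ratio on both arrays, 237 (0.601%) rose and 42 (0.107%) fell. A probe was counted when the mean ratio of PACAP over vehicle was at least 2-fold, or at most 0.5-fold, pointed the same way on each array and had a p of the scanning software, Feature Extraction, under 0.01 on each. That p comes from the scanner software's error model for a spot and says nothing about animals. The rises had a median of 3.13-fold and reached 29.1-fold, and they belonged to 213 gene names. The falls had a median of 0.437-fold, reached 0.116-fold and belonged to 39 gene names. For the rises the arrays differed by a median factor of 1.13, and for the falls by 1.17. Of the rises, 202 were well above background in both channels on both arrays, but of the falls only 22 were. With another background correction (normexp, then loess), which shrinks ratios of dim spots, 154 of the rises and 10 of the falls were still 2-fold. The share of rises among all calls was 84.9% with the scanner software's signals and 93.9% with normexp. On single arrays it was 49.4% and 60.4%.

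Over all probes the ratios of the dye-swapped arrays ran against each other (r = -0.70 across probes, which are not independent replicates), with the ratios of dim spots changing sign with the dye. The methods and labels state which dye each sample carried, so the direction was kept. Over the 22783 probes well above background in both channels on both arrays, r was 0.42, and 0.71 after normexp. Precision is limited by how few arrays there were, and a fold below is the mean of both arrays unless a single array is named.

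**Figure D1:**
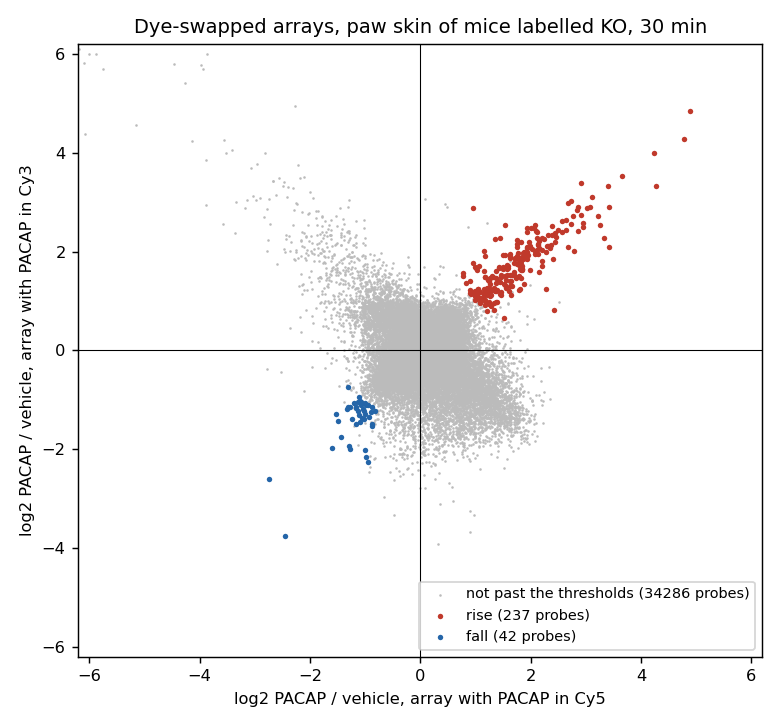
Each point is a probe well above background on at least 1 array in both RNA samples, placed by its log2 ratio of PACAP over vehicle on the array with PACAP in Cy5 (horizontal) and in Cy3 (vertical). The 237 rises (red) reach a log2 of 4.87 on their mean and the 42 falls (blue) a log2 of -3.1, while the grey arm at the upper left holds ratios that changed sign with the dye; 5 probes lie outside the axes.

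The labels were set against the data before the results. The 10 markers of keratinocytes had a median log2 intensity of 15.35 in the vehicle sample, and the water channel gene of sweat glands, Aqp5, had a processed signal of 25400 and 23500 there. The 51 measured sarcomere genes had a median level of 10.54 in the vehicle sample, so muscle RNA was in the skin samples. The probe of the deleted gene, Adcyap1r1 (chromosome 6, 55450829 to 55450888 in mm9), gave a signal of 225 and 242 in vehicle skin and of 209 and 208 in PACAP skin, a ratio of 0.894-fold. Its level was 7.98 in vehicle skin and 7.91 in PACAP skin of the KO pair at 30 min, against 8.28 and 8.27 in the WT pair. At 60 min it was 8.56 and 8.42 in the KO pair and 8.67 and 8.76 in the WT pair. The probe was thus well above background in mice labelled KO. Whether it lies outside the deleted part is not given in the sources used here, so it does not check the genotype, and KO below means mice labelled KO. In whole skin, fewer cells of a type and less RNA per cell cannot be told apart.

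Before the values, the stretches ahead of a few genes are shown, since these letters played no part in the counting of rises and falls. Of 147 genes with a rise that the RefSeq promoter table held, 54.4% had the letters TATAAA, on either strand, in the 250 bases ahead of the gene start, against 14.3% of all 27025 genes in the table. The AP-1 letters TGANTCA were found ahead of 15.6% of the rises and of 7.82% of all genes. The NF-kappa-B motif was found ahead of 2.72% and 4.46%, and the palindromic cyclic AMP response element (TGACG followed by TCA) ahead of 0.68% and 1.77%. Among the 28 genes with a fall in the table, TATAAA stood ahead of 10 (35.7%), AP-1 ahead of 4 (14.3%) and NF-kappa-B ahead of 2 (7.14%). The shares among the falls rest on few genes, and no share was tested against that of all genes. The CArG motif of muscle and growth factor genes stood ahead of 3 of these falls (10.7%), against 2.04% of the rises and 1.62% of all genes. A match is a description of letters and not of a bound factor, and many of the rises lie in gene families that share sequence. The sequences are from RefSeq on GRCm38.p6, run 5′ to 3′ on the gene's strand up to the base before the start, and show matches in capitals.

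The matrix metalloproteinase gene Mmp13, at 14-fold, had an AP-1 match starting 35 bases ahead of its start and TATAAA at 16 (chr9:7272264-7272513, plus strand).
Mmp13: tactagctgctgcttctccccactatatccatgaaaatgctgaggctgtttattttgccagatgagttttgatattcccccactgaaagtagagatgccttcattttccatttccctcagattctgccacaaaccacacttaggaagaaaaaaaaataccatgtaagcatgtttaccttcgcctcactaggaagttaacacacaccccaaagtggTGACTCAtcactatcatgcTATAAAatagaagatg
The small proline-rich protein gene Sprr2f, at 10.3-fold (3.04-fold by normexp, with a vehicle signal well above background on 1 array only), had AP-1 at 197 and TATAAA at 29 (chr3:92364937-92365186, plus strand).
Sprr2f: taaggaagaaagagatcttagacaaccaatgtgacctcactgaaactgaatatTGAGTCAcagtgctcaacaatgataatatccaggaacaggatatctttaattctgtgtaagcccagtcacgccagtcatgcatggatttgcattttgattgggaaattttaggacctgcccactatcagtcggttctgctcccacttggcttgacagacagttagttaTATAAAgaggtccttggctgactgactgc
The hair gene Krtap11-1, at 7.93-fold, had TATAAA at 28 and no other of the motifs searched (chr16:89571184-89571433, minus strand).
Krtap11-1: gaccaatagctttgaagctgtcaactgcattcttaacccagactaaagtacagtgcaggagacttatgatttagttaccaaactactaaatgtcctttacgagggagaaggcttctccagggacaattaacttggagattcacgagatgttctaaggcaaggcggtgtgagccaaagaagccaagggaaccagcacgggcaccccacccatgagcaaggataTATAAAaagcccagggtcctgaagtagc
The cytokine gene Il6, at 3.80-fold, had AP-1 at 249 and NF-kappa-B at 44 (chr5:30012864-30013113, plus strand).
Il6: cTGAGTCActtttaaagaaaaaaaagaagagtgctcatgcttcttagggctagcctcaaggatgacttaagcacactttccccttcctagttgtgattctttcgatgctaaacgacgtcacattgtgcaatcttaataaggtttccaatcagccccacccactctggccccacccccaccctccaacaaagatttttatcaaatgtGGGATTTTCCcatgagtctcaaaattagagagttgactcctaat
The fast muscle myosin gene Myh4, which fell to 0.402-fold, had CArG at 104 and TATAAA at 31, with further TATAAA matches at 179 and 213 (chr11:67237562-67237811, plus strand).
Myh4: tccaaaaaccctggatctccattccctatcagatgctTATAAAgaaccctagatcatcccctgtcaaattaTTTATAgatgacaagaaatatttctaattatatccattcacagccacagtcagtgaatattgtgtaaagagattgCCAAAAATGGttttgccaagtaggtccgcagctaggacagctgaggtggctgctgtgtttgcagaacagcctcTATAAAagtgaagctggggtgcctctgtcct

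The largest rise of all was that of Cxcl5. Cxcl5, a chemokine that draws neutrophils, had a processed signal of 78.9 and 88.6 in vehicle skin and of 2340 and 2540 in PACAP skin, so that it was 29.6-fold and 28.7-fold higher on the arrays (chromosome 5, 91190490 to 91190549 in mm9). Vehicle and PACAP signals lay far apart on both arrays, and normexp gave 16.8-fold. In the other KO comparison, at 60 min, Cxcl5 was 3.1-fold higher, and in WT mice it was at 1.06-fold (30 min) and 0.928-fold (60 min). As a level, on the log2 scale of normexp intensities that were also normalized between arrays, it went from 7.07 to 11.14 with PACAP in KO at 30 min. That was the highest of the 8 RNA samples, and the 4 vehicle samples lay between 7.02 and 8.20.

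Csta3, a stefin that inhibits cysteine proteases, rose from 57.3 and 71.9 to 1080 and 1150 (17.4-fold). It was also high after PACAP in KO at 60 min (11.2-fold) and in WT at 60 min (7.88-fold), and 1.30-fold in WT at 30 min. Saa3, an acute phase apolipoprotein made in tissues, rose from 242 and 333 to 3060 and 3840 (12.1-fold), with 6.91-fold in KO at 60 min and 1.56-fold in WT at 30 min. Mmp13, a collagenase, rose from 8.75 and 21.2 to 169 and 214 (14-fold). Its vehicle signal was well above background on 1 array only, and normexp gave 3.11-fold. A transcript of a predicted gene on chromosome 1 (175931702 to 175931761 in mm9) had 23-fold from signals of 5.39 and 11.9 to 148 and 231, and 3.28-fold by normexp. Other transcripts without a gene symbol were at 8.63-fold and 7.17-fold, or 3.94-fold and 2.04-fold by normexp. Nppb, the natriuretic peptide B gene, rose from 12.0 and 20.1 to 128 and 151 (8.95-fold), and was at 4.41-fold in KO at 60 min. For Mmp13, the predicted gene and Nppb the direction was the same with normexp, but the size depended on the background correction.

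Il1rl1, the receptor of interleukin 33, rose from 143 and 135 to 945 and 1100 by the called probe (7.32-fold), which had the highest level of the 8 samples at 9.93. Another measured probe was at 0.857-fold (162 and 175 to 152 and 138), so the probes of this gene disagree. Chil3, a chitinase-like protein of myeloid cells, rose from 179 and 173 to 1350 and 1800 (8.86-fold). At 60 min in KO it was at 0.516-fold, and its level in that vehicle sample, 9.80, lay near the 10.51 of PACAP skin at 30 min. Fpr2, a formyl peptide receptor of neutrophils, rose from 6.68 and 13.9 to 63.9 and 81.3 (7.47-fold, or 1.74-fold by normexp).

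**Figure D2:**
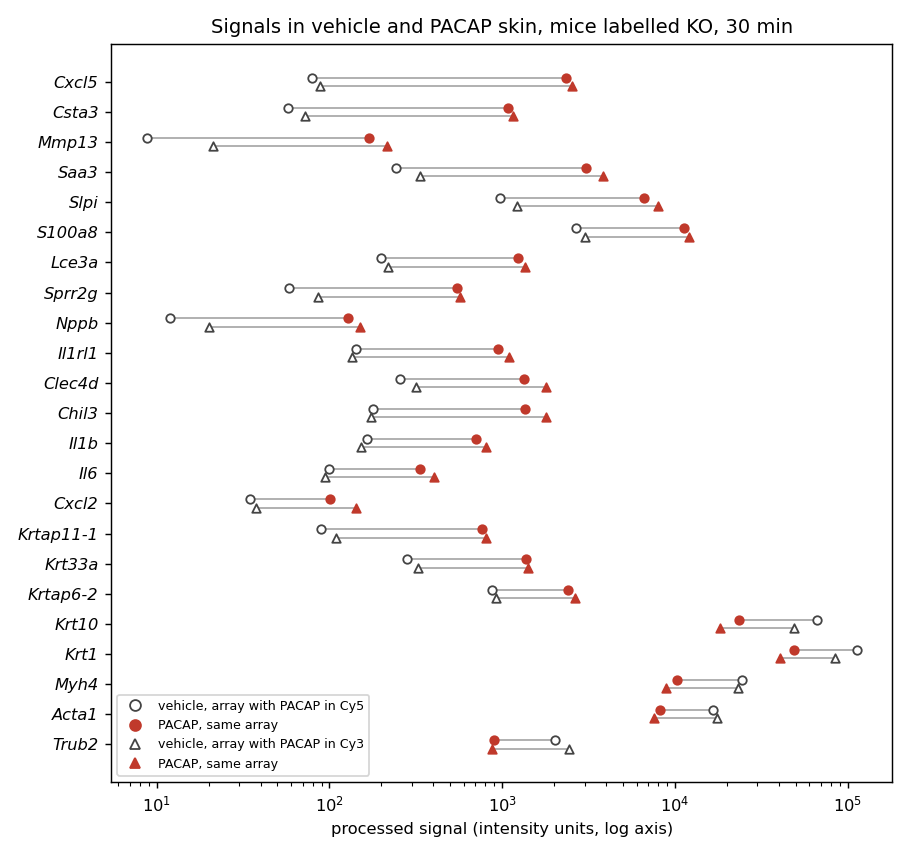
Processed signals (log axis, intensity units) of 23 genes in vehicle (open) and PACAP (red) skin of KO mice at 30 min, with circles for the array with PACAP in Cy5 and triangles for the dye swap. Cxcl5 moves from 78.9 and 88.6 to 2340 and 2540, and Krt10 from 66000 and 49100 to 23600 and 18300; within each gene the vehicle and PACAP signals do not overlap.

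Lists of genes were read by each gene's brightest probe. Among all 26245 gene names measured in both RNA samples, 0.777% rose and 0.107% fell, with a median log2 ratio of 0.01. These shares stand beside each list's count, and the lists were chosen with earlier results of these data known.

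Of 33 measured antimicrobial and alarmin genes, 10 rose and 0 fell, and the median log2 ratio was 0.60. Besides Saa3 and Chil3 these were Slpi, Saa1, Saa2, S100a8, S100a9, Lcn2, Defb4 and Chil4. By normexp 8 of the 10 were still called, without Defb4 (1.76-fold) and Chil4 (1.28-fold). Slpi, an inhibitor of neutrophil elastase, had signals of 970 and 1210 in vehicle skin and of 6610 and 7980 in PACAP skin (6.70-fold). S100a8 rose from 2670 and 3010 to 11300 and 12100 (4.13-fold), and S100a9, its partner in calprotectin, from 4480 and 5270 to 17100 and 22200 (4.01-fold). These were bright on every array and differed little between corrections (Slpi 6.29-fold and S100a8 4.04-fold by normexp). In KO at 60 min the same genes were at 5.96-fold, 4.56-fold and 3.57-fold, and in WT at 30 min at 0.802-fold, 1.67-fold and 1.93-fold. The beta-defensin genes Defb6 and Defb14 were at 1.97-fold and 1.90-fold, below the threshold. Outside the list, Defb8 and Defb7 rose to 4.76-fold and 4.37-fold (4.07-fold and 1.93-fold by normexp). In WT at 30 min they were at 3.66-fold and 3.98-fold, and their levels after PACAP in KO at 30 min lay within the range of the vehicle samples. The lactoferrin gene Ltf was dim, at 0.556-fold and 1.1-fold on the arrays. The list's median level went from 10.00 to 11.37 with PACAP, above all 4 vehicle samples (10.00 to 10.45). These medians belong to different genes, since in each vehicle sample the median was the level of Slpi, which went to 12.65 with PACAP. The list's median log2 ratio by normexp was 0.52, so the step between these levels overstates the typical gene.

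Of 10 measured stefin and cystatin genes, 3 rose (Csta3, Stfa1 and Stfa2) and all 10 had a ratio above 1. Stfa1 was at 3.04-fold and Stfa2 at 3.37-fold, and another measured probe of Stfa1 was at 0.930-fold. Of 14 small proline-rich (Sprr) genes, which code for proteins of the cornified envelope, 5 rose, namely Sprr2e, Sprr2f, Sprr2g, Sprr2i and Sprr2j-ps. By normexp 3 of the 5 were still called, Sprr2i (1.56-fold) and Sprr2j-ps (1.59-fold) were not, and Sprr2f was at 3.04-fold. Sprr2g rose from 58.6 and 86.4 to 545 and 573 (7.86-fold), and at 60 min it was at 8.57-fold in KO and 4.33-fold in WT mice. In WT mice at 30 min it was at 0.900-fold. Sprr1a and Sprr1b were at 1.26-fold and 0.726-fold. Members of both families share sequence, so that signal can be split between copies. The late cornified envelope gene Lce3a rose from 199 and 218 to 1240 and 1350 (6.24-fold), and the other Lce3 genes lay between 1.36-fold (Lce3c) and 1.88-fold (Lce3e).

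Single keratin genes of the epidermis were called in either direction. Krt10 and Krt1, the keratin pair of the layers above the basal layer, were among the bright falls. Krt10 had signals of 66000 and 49100 in vehicle skin and of 23600 and 18300 in PACAP skin (0.365-fold), and both of its probes fell. Krt1 went from 113000 and 84700 to 48800 and 40500 (0.455-fold). The Krt10 level went from 15.52 to 14.10 with PACAP, the highest and the lowest of the 8 samples. In the other comparisons Krt10 was at 1.12-fold (WT at 30 min), 1.47-fold (WT at 60 min) and 0.988-fold (KO at 60 min). Krt16 and Krt17, keratins of stressed and wounded epidermis, rose to 2.23-fold and 2.3-fold, from 21600 and 32800 to 54700 and 64300 for Krt16. At 60 min they were at 5.38-fold and 2.1-fold in KO and at 2.3-fold and 2.1-fold in WT. In WT at 30 min they were at 0.859-fold and 0.899-fold. Their partner Krt6a was at 1.38-fold, while Krt6b rose to 2.13-fold by 1 probe (2.05-fold by normexp) and was at 1.97-fold by another. Of 35 wound response genes 3 rose (Krt16, Krt17 and Epgn, an epidermal growth factor family ligand at 2.86-fold), and the list's median was -0.16. Of the 10 markers of keratinocytes 8 had a ratio below 1, with a median of -0.62, and 2 of them fell.

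**Figure D3:**
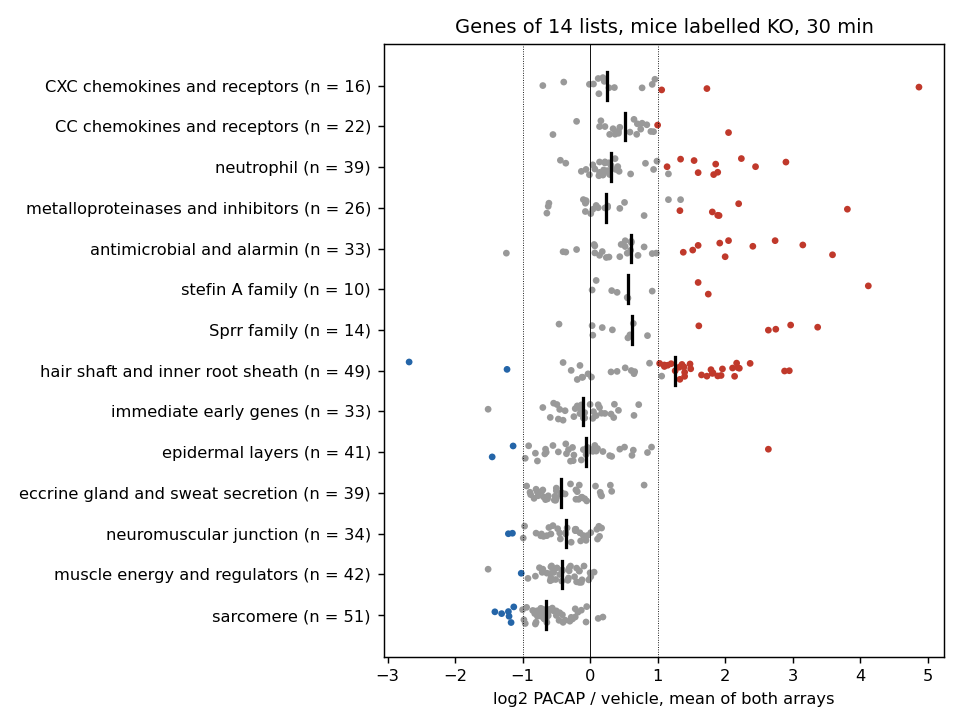
Each point is a gene of 1 of 14 lists (rows), placed by its log2 ratio of PACAP over vehicle in KO mice at 30 min (mean of both arrays, brightest probe); red points rose and blue points fell past the thresholds, and black bars are list medians. Hair genes have the highest median (1.26) with 31 rises, and sarcomere genes the lowest (-0.65) with 6 falls.

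Among chemokines and cytokines, few genes passed the thresholds and most lay above 1. Of 16 measured CXC chemokines and receptors 3 rose, Cxcl5, Cxcl2 and Ppbp, and of 22 CC chemokines and receptors 2 rose, Ccl4 and Ccl6. Cxcl2 went from 34.9 and 37.6 to 101 and 143 (3.32-fold), against 3.91-fold in the WT pair at that time. Ccl4 went from 18.5 and 23.2 to 75.6 and 96.6 (4.13-fold). By normexp Cxcl2 was at 1.76-fold, Ppbp at 1.58-fold and Ccl4 at 1.67-fold, all under the threshold. The CC list had a median log2 ratio of 0.52, with 20 of 22 genes above 0. Cxcl11, a chemokine that interferon induces, was at 0.614-fold, and both probes of Cxcl9 were near background, with signals between 3.21 and 8.32. Of 35 cytokine genes 2 rose, Il1b and Il6. Il1b, printed on 10 spots per array, rose from 164 and 153 to 701 and 811 (4.76-fold), and its single spots, averaged over the arrays, lay between 4.60-fold and 4.88-fold. Il6 rose from 98.9 and 94.7 to 335 and 405 (3.80-fold), and was at 4.47-fold in WT at 30 min. The level of Il6 after PACAP, 8.60, lay within the range of the vehicle samples (7.01 to 9.75), and that of Il1b, 9.51, lay below the vehicle sample of KO at 60 min (9.88).

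Of 39 neutrophil genes 10 rose and 0 fell, with a median log2 ratio of 0.31 and 34 of 39 above 0. Among them were receptors (Fpr2, Fpr1, Clec4d, Clec4e, Trem3) and secreted proteins (Mmp9, Hp, Lcn2, Retnlg). By normexp 4 of the 10 were still called. Clec4d, a lectin receptor of myeloid cells, rose from 255 and 315 to 1330 and 1800 (5.46-fold), and Hp, haptoglobin, from 1380 and 1490 to 4630 and 5610 (3.55-fold). Retnlg rose from 213 and 220 to 569 and 699 (2.91-fold). The granule gene Elane was at 1.22-fold and Csf3r, the receptor of granulocyte colony-stimulating factor, at 0.737-fold. Mpo and Ngp were dim and lay below 1 on the array with PACAP in Cy5 and above 1 on the other. Lcn2, Camp, Ltf, Pglyrp1 and Wfdc21 stood in both the neutrophil and the antimicrobial list. A few rises outside the lists are named here after their values were seen, as single genes. Probes of the Sirpb1 family on chromosome 3 had log2 ratios of 2.21 and 1.92 (Sirpb1b) and 2.08 (Sirpb1a), Ms4a6d had 1.19, and Fcgr4, an antibody receptor, had 1.29. By normexp Ms4a6d had 1.12 and Fcgr4 0.77, which is under the threshold. The markers of macrophages (15 genes), T and B lymphocytes (11), mast cells (10) and eosinophils (9) had 0 calls in either direction. In lists this small, a count of 0 is near the share over all gene names. The median log2 ratios of macrophage, mast cell and eosinophil markers were 0.17, 0.37 and 0.14. All 11 lymphocyte markers lay above 0, with a median of 0.43 that was 0.69 on the array with PACAP in Cy5 and 0.16 on the other.

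Of 26 metalloproteinases and inhibitors 6 rose, Mmp13, Mmp1b, Mmp10, Mmp9, Mmp3 and Timp1. Timp1, the tissue inhibitor of metalloproteinases, went from 1060 and 1320 to 4190 and 4080 (3.50-fold), and Mmp3 from 2140 and 2020 to 4840 and 5690 (2.52-fold). Both were bright and stayed above 2-fold by normexp, as did Mmp13. Mmp1b, Mmp10 and Mmp9 were dim and did not, at 1.39-fold, 1.66-fold and 1.26-fold. The 10 spots of Mmp9, averaged over the arrays, ran from 2.19-fold to 4.75-fold. Mmp10 differed between the arrays, with 1.92-fold and 7.39-fold. In WT at 30 min Timp1 and Mmp3 were at 0.933-fold and 0.930-fold, and in KO at 60 min at 1.86-fold and 1.83-fold.

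Of 33 immediate early genes and targets of the transcription factor CREB, which cyclic AMP and calcium signals are known to induce within minutes, 0 were called. With 0.777% and 0.107% of all gene names called, a count of 0 in a list of this size is near the background. In the list 14 genes lay above 0 and 19 below, and the median log2 ratio was -0.10. Fos was at 1.16-fold, Egr1 at 0.934-fold, Nr4a1 at 0.903-fold and Crem at 1.57-fold. Ppargc1a, a coactivator that CREB induces in muscle and liver, was lowest at 0.352-fold without passing the p threshold on both arrays. The median of this list was 0.37 in WT at 30 min. Of 15 genes of MAP kinase feedback 14 lay below 0, with 0 calls and a median of -0.29. Of 28 NF-kappa-B targets 1 rose, Acod1, the itaconate enzyme of activated myeloid cells, at 6.97-fold from signals of 4.77 and 11.1 to 47.7 and 53.8 (1.59-fold by normexp). The 10 spots of Acod1 ran from 6.18-fold to 8.05-fold. Nfkbia, the inhibitor that NF-kappa-B itself induces, was at 0.878-fold. Of 29 interferon-inducible genes and 21 prostaglandin genes 0 were called, with medians of -0.19 and -0.02. Ptgs2 was at 1.37-fold, against 2.72-fold in WT at 30 min.

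Among ligands and receptors of the PACAP family 0 of 9 measured genes were called. Vipr1, a receptor for both PACAP and VIP, was at 0.584-fold by its brightest probe, from 1130 and 1130 to 635 and 686, and at 1.03-fold by its other probe. Vipr2 was at 0.680-fold, Adcyap1, the PACAP gene, at 1.14-fold, and Gnas, the G protein subunit that activates adenylate cyclase, at 0.649-fold. Of 39 measured eccrine gland and sweat secretion genes 0 were called, 32 lay below 0 and the median was -0.43 (-0.18 by normexp). Aqp5 went from 25400 and 23500 to 14100 and 14500 (0.585-fold) by 1 probe and was at 0.892-fold by another. Chrm3, the muscarinic receptor of sweat secretion, was at 0.564-fold and Slc12a2, the chloride cotransporter, at 0.574-fold. The 17 housekeeping genes had 0 calls and a median of -0.15, with Actb at 0.776-fold and Eef2 at 0.607-fold.

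Of 51 sarcomere genes 0 rose, 6 fell and 49 lay below 0, with a median log2 ratio of -0.65. The falls were Myh4, Myh1 and Myh8, which code for myosin heavy chains, Acta1, the actin of skeletal muscle, Actn3, and Tmod1, which caps actin filaments. Myh4 went from 24400 and 23100 to 10300 and 8860 (0.402-fold), and Acta1 from 16700 and 17600 to 8220 and 7530 (0.458-fold). In WT at 30 min they were at 2.75-fold and 1.62-fold. The Myh4 level of 12.96 after PACAP was the lowest of the 8 samples, and the vehicle samples lay between 13.28 and 14.25. The vehicle sample of this pair was the highest of them, at 14.25. Myh1 and Myh8 also had their highest vehicle level in this pair (14.17 and 14.07), while Acta1 (13.80) and Actn3 (8.98) did not. Myh1 after PACAP, at 13.04, lay within the range of the vehicle samples. Actn3 was at 0.433-fold, or 0.514-fold by normexp. Another probe of Myh8 was at 1.24-fold. Myh7, the slow myosin heavy chain, fell to 0.330-fold by a dim probe (0.658-fold by normexp). Tmod1 was dim, from 72.2 and 56.4 to 25.0 and 23.1 (0.376-fold, or 0.748-fold by normexp). As a list, the median level was 10.54 in vehicle and 10.11 in PACAP skin, within the range of the 4 vehicle samples (9.96 to 10.70). Of 42 genes of muscle energy and regulation 40 lay below 0 and Eno3, the muscle enolase, fell (0.493-fold, or 0.514-fold by normexp). Of 34 genes of the neuromuscular junction and of excitation-contraction coupling 28 lay below 0, and Chrnd and Musk fell at dim signals (0.451-fold and 0.432-fold, or 0.822-fold and 0.833-fold by normexp). Chrna1, a subunit of the nicotinic receptor, fell to 0.419-fold by a dim probe (67.9 and 56.5 to 27.1 and 24.8), which was at 0.724-fold by normexp, while its brighter probe was at 0.861-fold. Cacna1s, a calcium channel subunit, was at 0.576-fold and 0.782-fold by its probes. Kcnn2 was dim, at 0.504-fold from 22.7 and 16.1 to 9.79 and 9.46, and at 0.914-fold by normexp, and neither gene was called. Tbc1d1, a regulator of glucose uptake in muscle, was at 0.667-fold by its brightest probe, and Panx3, a channel protein, was dim and at 1.15-fold.

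Further falls were single genes of bone, matrix and RNA modification. Trub2, a mitochondrial pseudouridine synthase, was read on 10 spots and went from 2020 and 2450 to 898 and 873 (0.398-fold), with single spots, averaged over the arrays, between 0.393-fold and 0.408-fold. Its level was 11 in vehicle skin and 9.74 in PACAP skin, the lowest of the 8 samples. Other, dim probes of the gene were at 0.953-fold and 1.04-fold, and of the 12 measured pseudouridine synthases no other was called. Col10a1, the collagen of hypertrophic cartilage, fell to 0.322-fold from signals of 73.5 and 78.9, Ibsp, bone sialoprotein, to 0.290-fold from 52.1 and 48.0, and Phex to 0.443-fold. By normexp these were 0.652-fold, 0.714-fold and 0.811-fold. A brighter probe of Ibsp was not called and differed between the arrays (0.145-fold and 0.767-fold). Of 23 collagen genes 20 lay below 0 and Col22a1 fell (0.432-fold, or 0.664-fold by normexp), with another measured probe at 0.779-fold. The glutathione transferase gene Gsta4, on 10 spots, rose from 752 and 940 to 1740 and 2040 (2.24-fold). The dim fall 6720420G18Rik was at 0.415-fold, or 0.767-fold by normexp. The dim falls Cbx7, Map4k2, Tmtc1 and Rbmxl2, between 0.326-fold and 0.352-fold, were between 0.832-fold and 0.915-fold by normexp.

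The remaining lists had few calls. Of 40 cartilage and bone genes 2 fell (Col10a1 and Phex), with a median log2 ratio of -0.14, and of 41 genes of basal, suprabasal and cornified epidermis 1 rose (Lce3a) and 2 fell (Krt1 and Krt10), with a median of -0.06. Of 25 heat shock, glucocorticoid and metallothionein genes only Lcn2 rose, and the median was -0.26. Of 19 circadian clock genes and 28 cell cycle genes 0 were called, with medians of -0.35 and -0.08. Markers of endothelial cells (0.01), fibroblasts (-0.28), adipocytes (-0.06), melanocytes (0.09), Schwann cells (-0.24) and erythroid cells (0.20) had 0 calls, with the medians given. Of 14 hepatocyte markers Fgg, a fibrinogen chain, rose at 7.11-fold (1.6-fold by normexp), and the list's median was 0.27.

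Hair genes gave the most rises. Of 49 measured genes of the hair shaft and inner root sheath 31 rose and 2 fell, and the median log2 ratio was 1.26 (0.85 by normexp). Krtap11-1, a keratin-associated protein that cross-links hair keratins, had signals of 89.7 and 109 in vehicle skin and of 759 and 808 in PACAP skin (7.93-fold), and a brighter probe gave 7.70-fold. The hair keratin Krt33a rose from 280 and 326 to 1380 and 1410 (4.62-fold) and the inner root sheath keratin Krt71 from 1220 and 1210 to 2720 and 3380 (2.50-fold). Tchh, trichohyalin, rose from 780 and 786 to 1820 and 2120 (2.51-fold). The transcription factors Hoxc13, Foxn1 and Dlx3, which act in the follicle, lay between 0.760-fold and 0.925-fold and were not called. The other rises of the list lay between 2.04-fold (Padi3) and 7.34-fold (Krtap19-1, which was dim and at 1.5-fold by normexp). Krt36 fell to 0.425-fold by 1 of 3 measured probes (0.501-fold by normexp), while another was at 1.17-fold. By normexp 21 of the 31 rises and neither of these 2 falls of the list, Krt36 and Krtap13, were still called. Krtap13 and 2310034C09Rik, dim probes on chromosome 16, were at 0.157-fold and 0.116-fold, with PACAP signals well above background on 1 array only, and by normexp they were at 0.673-fold and 0.552-fold. Krtap6-5, read on 10 spots, rose from 251 and 261 to 774 and 976 (3.4-fold).

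Part of the rises lay in runs along the chromosomes. On chromosome 16, 44 of 1291 probes (3.41%) rose, on chromosome 3 1.56% and on chromosome 11 1.49%, and all other chromosomes were at or below 0.728%. A span of chromosome 16 (88611735 to 89570882 in mm9), where keratin-associated protein genes lie side by side, held 39 rises and 2 falls among 58 measured probes. A span of the type I keratins on chromosome 11 (99177867 to 100117594) held 37 rises and 3 falls among 82, and a span of Krtap5 genes on chromosome 7 (149306598 to 149490408) held 13 rises among 19. The probes of the first span that rose had a median log2 ratio of 1.77, against -1.24 in WT at 30 min, 2.44 in WT at 60 min and -1.42 in KO at 60 min. Spans of 5 or more rises with gaps of at most 500000 bp were sought after the values were seen, and neighbouring copies can share signal.

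Hair gene levels differed between the vehicle samples. The list's median was 8.13 in the vehicle sample of KO at 30 min, the lowest of 4, and 9.16, 8.42 and 10.63 in those of WT at 30 min, WT at 60 min and KO at 60 min. The median after PACAP, 9.36, lay inside that range. For Krtap11-1 the level went from 7.22 to 9.58, while the vehicle sample of KO at 60 min was at 10.81. Over all calls, 146 of the 237 rises had a level after PACAP within the range of the 4 vehicle samples, and 91 lay above all of them. Of the 42 falls 29 lay below all vehicle samples and 13 within. The same shares over all probes were not computed, and the called probes were chosen by the ratio of this pair. These counts therefore do not show how unusual the levels were. The number of hair follicles in each piece of skin was not measured, and its part in these values was not tested.

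**Figure D4:**
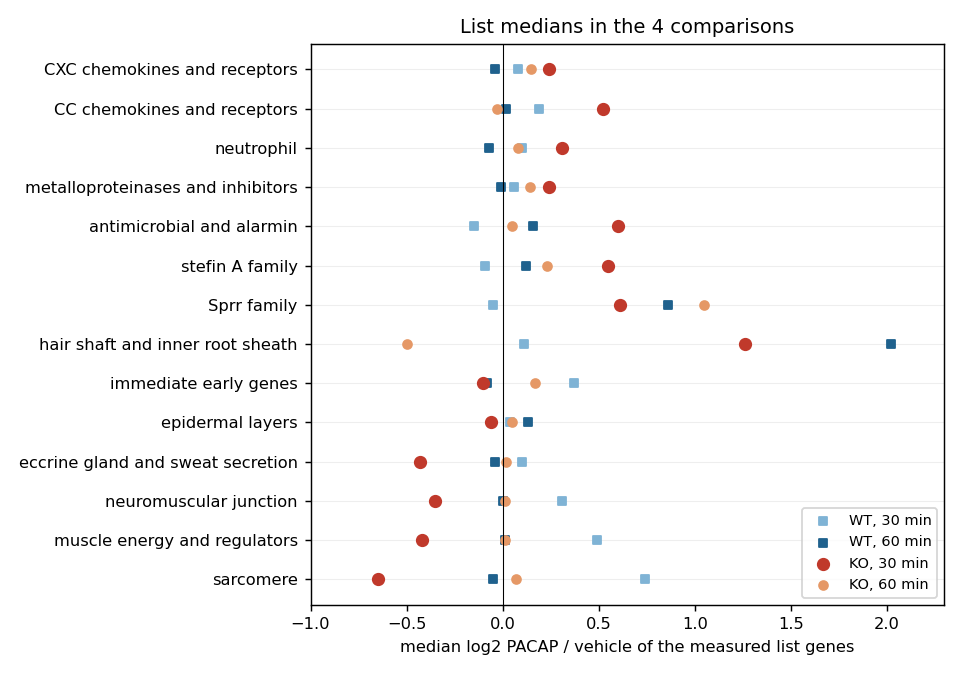
Median log2 ratio of PACAP over vehicle for the measured genes of 14 lists (rows), in KO (circles) and WT (squares) at 30 and 60 min, each from 1 pair of RNA samples. For hair genes the medians are 1.26 (KO) and 0.11 (WT) at 30 min and -0.50 (KO) and 2.02 (WT) at 60 min; for sarcomere genes they are -0.65 and 0.74 at 30 min.

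The difference of this comparison from the other 3 was tested with limma across 30351 probes, which took the other 3 as replicates and assumed that this comparison varies like them. With Benjamini-Hochberg adjustment 0 probes (0%) passed an adjusted p of 0.05, and the smallest adjusted p was 0.147. Over probes well above background, the standard deviation of the log2 ratios was 0.372 in KO at 30 min. It was 0.290 in WT at 30 min, 0.262 in WT at 60 min and 0.202 in KO at 60 min. With 1 value per probe, a wider spread of this comparison cannot be told from a difference. Counts at an unadjusted p are therefore not given. For Cxcl5 the log2 difference in limma was 4.33 (standard error 0.70, adjusted p = 0.15), for Mmp13 3.13 (0.35, adjusted p = 0.15), for Krt10 -1.69 (0.26, adjusted p = 0.15) and for Trub2 -1.52 (0.21, adjusted p = 0.15). The 10 smallest p belonged to dim probes, of Ppp1r7, Map4k2, Strbp, AU041133, Cdc5l, 6720474J12Rik, Kcnj13, Ibsp, 2610034E01Rik and Xpnpep3, all lower in KO at 30 min. Of these only Map4k2 was among the 42 falls by the same probe. For the hair gene Krtap11-1 the limma difference was 2.34 (1.07, adjusted p = 0.22), and for Csta3 1.84 (1.20, adjusted p = 0.35). The test thus singled out no probe after adjustment, which does not show that the responses were alike, since it rests on 4 values per probe.

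**Figure D5:**
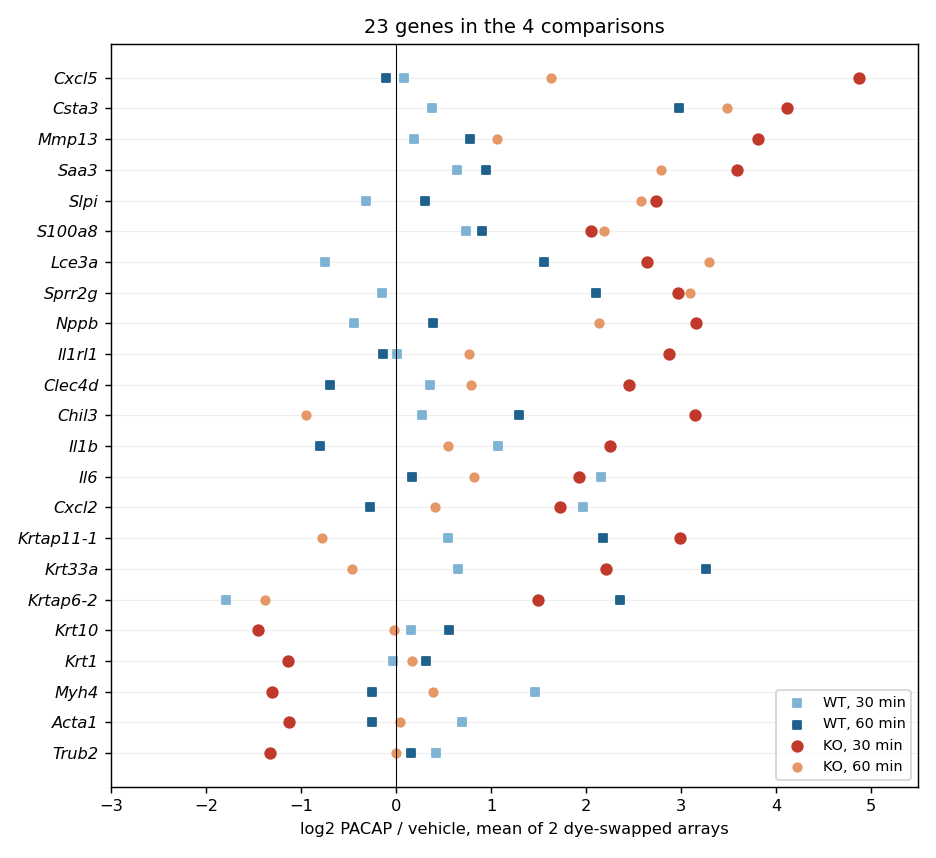
Log2 ratio of PACAP over vehicle for 23 genes in the 4 comparisons, each point the mean of 2 dye-swapped arrays of 1 pair of RNA samples (circles KO, squares WT). Cxcl5 stands at 4.87 in KO at 30 min and 1.63 in KO at 60 min with both WT values near 0, while Il6 (1.93 and 2.16) and Cxcl2 (1.73 and 1.97) lie close together in KO and WT at 30 min.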

How the data were processed

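Total RNA of palm skin was labelled with Cy3 or Cy5 and hybridised to Agilent arrays. The authors scanned them and ran Feature Extraction (11.0.1.1 per the labels, 12.0.3.1 per the file headers). Its deposited intensity values are background-subtracted, LOWESS-normalized signals, with surrogate values for dim spots. The deposited log10 ratios are red over green, in the scanner files and in the series matrix, whose values equal the log10 of the processed red over green signal within 5e-10 and have a median of -0.020 and -0.0077 in the columns of this comparison. The deposited p-value is that of a single spot under the software's error model.

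Control spots and spots marked as outliers were left out, all ratios were given as PACAP over vehicle, and spots of a probe and then both dye orientations were averaged, since they hold the same RNA. The 43020 spots made 39429 probes, of which 3 had no ratio on both arrays, with 0 saturated spots. The share of spots well above background on the 2 arrays was 90.8% and 88.7% for red and 61.8% and 60.0% for green. A gene was called measured when its probe was well above background on at least 1 array in both RNA samples. Levels are log2 intensities after normexp (offset 50), loess and Aquantile. Tests used limma 3.58.1 in R 4.3.3. The genes named are mainly the 15 largest rises and falls by gene name, called members of 40 gene lists, genes the study names, ligand and receptor genes, probes on 10 spots and the 10 smallest limma p, with uncalled list members as examples. A few results are not reported here. Members and lists were chosen with earlier results of these data known. The steps were tested on simulated data. Probe positions are those of the files (mm9), and promoter sequences are RefSeq's on GRCm38.p6, matched by symbol. Alternatives were other normalizations, thresholds, filters and single arrays.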

Additional observations from a re-analysis of the deposited data

Results flagged for a closer look

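The sarcomere list had a median log2 ratio of -0.65 in KO at 30 min and of 0.74 in WT at 30 min, opposite directions under the same contrast. The hair shaft and inner root sheath list had 1.26 in KO at 30 min and -0.50 in KO at 60 min. Each value comes from 1 pair of RNA samples, so these differences were not tested.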

How the results depend on the processing

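The 237 rises and 42 falls became 435 and 446 on the array with PACAP in Cy5 alone and 723 and 474 on the other. At a mean of 1.5-fold there were 608 and 461, and with normexp 154 and 10, all of which were among the calls reported. Without the p filter there were 184 falls, and with both channels well above background on both arrays 22. All other counts, with the Feature Extraction log ratio, the series matrix, median centring, outlier spots kept, p under 0.001 and 2-fold on each array, were within 1.5 times. Of the 110 named probes 64 were still called with normexp, and 0 changed direction under the 12 alternatives, of which the filter on both channels left 81 of these probes. Most alternatives could not turn a direction, since a call already required the same sign on both arrays. Of 7 lists with a median past 0.5 on the log2 scale, only the hair list moved by more than the spread between dye orientations (0.237), to 0.85 with normexp, and none changed sign. The limma comparison gave 0 probes under all 8 alternatives, where the smallest adjusted p lay between 0.0501 (without KO at 60 min) and 0.247. No paired analysis was possible because the replicate numbers mark dye orientations of the same RNA. Dim spots limit the falls more than the rises, and no alternative adds animals.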
